A study of Homo sapiens with 18 samples.

Results

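The MYC, MAX and MXD network is a set of 9 transcription factor genes, MYC, MAX, MXD1, MXD3, MXD4, MXI1, MNT, MLX and MGA, taken by gene symbol. All 9 were listed in both cell lines, among 17110 genes in HL-60, 17475 in MOLM-13 and 19068 over both lines. The study profiled RNA from 18 samples of HL-60 and MOLM-13, established human acute myeloid leukaemia lines, after 48 h with the solvent DMSO, with DAC (decitabine, a cytidine analogue that depletes DNA methyltransferases) or with NTX-301, a compound known here by its code. Each of the 6 groups had 3 replicates. The stated concentration was 30 nM in the HL-60 wells and 15 nM in those of MOLM-13, in wording that does not settle whether the figure covers both drugs, so line and concentration cannot be told apart. The replicates were wells of plates, and p-values measure the spread between those wells.

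MAX is the shared partner of the network. MYC binds DNA as a dimer with MAX at E-box sites and raises transcription of growth genes, whereas the MXD proteins, MNT and MGA take MAX into dimers that repress, MXD proteins and MNT by way of the SIN3 corepressor. MLX is the partner in a parallel branch, where it pairs with the glucose-sensing factors MLXIP and MLXIPL and with some MXD proteins. In myeloid cells MYC is high in dividing progenitors and MXD1 is known to rise with differentiation. HL-60 is known to carry an amplified MYC locus.

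The values are the authors' log2 normalized levels per gene. No read totals came with them, so the depth behind each value is unknown. The labelled cell type was checked against 10 myeloid markers, all of which were listed in both lines. Their summed level was 19.01 to 19.1 in HL-60 DMSO, 19.01 in each DAC sample and 18.65 to 18.68 with NTX-301, and in MOLM-13 it was 18.39 to 18.4, 18.7 to 18.73 and 18.38 to 18.48 in the same order (log2 of the sum). Of 12 genes taken as markers of other cell types, 2 were listed in HL-60, CD79A and PECAM1. Their summed level was 8.74 to 8.77 with DMSO, 8.86 to 8.89 with DAC and 9.08 to 9.16 with NTX-301. In MOLM-13 5 were listed, CD3D, HBB, KRT18, COL1A1 and PECAM1, at 13.2 to 13.23, 13.41 to 13.45 and 13.3 to 13.42. CD3E, MS4A1, EPCAM and VWF were among those listed in neither line. A sum does not show which of its genes carried the level, or that cells of another type were present. The part of these markers in the results below was not tested, and in bulk RNA fewer cells of a type and less RNA per cell cannot be told apart.

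In HL-60, both drugs lowered several members and raised none past the threshold. With DAC against DMSO, 0 of the 9 members were called higher and 4 were called lower, where 11.6% of all genes tested were called higher and 12.6% lower (limma, Benjamini-Hochberg adjusted p below 0.05). With NTX-301, 0 were called higher and 5 lower, against 18.3% and 19.2% of all genes. In MOLM-13, with DAC, 3 members were called higher and 2 lower, against 15.4% and 21.2% of all genes. With NTX-301, the counts were again 3 higher and 2 lower, against 20.3% and 24.8%. The 2 drug comparisons of a line share their DMSO samples, so their values are set side by side below and not counted as separate support.

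**Figure D1:**
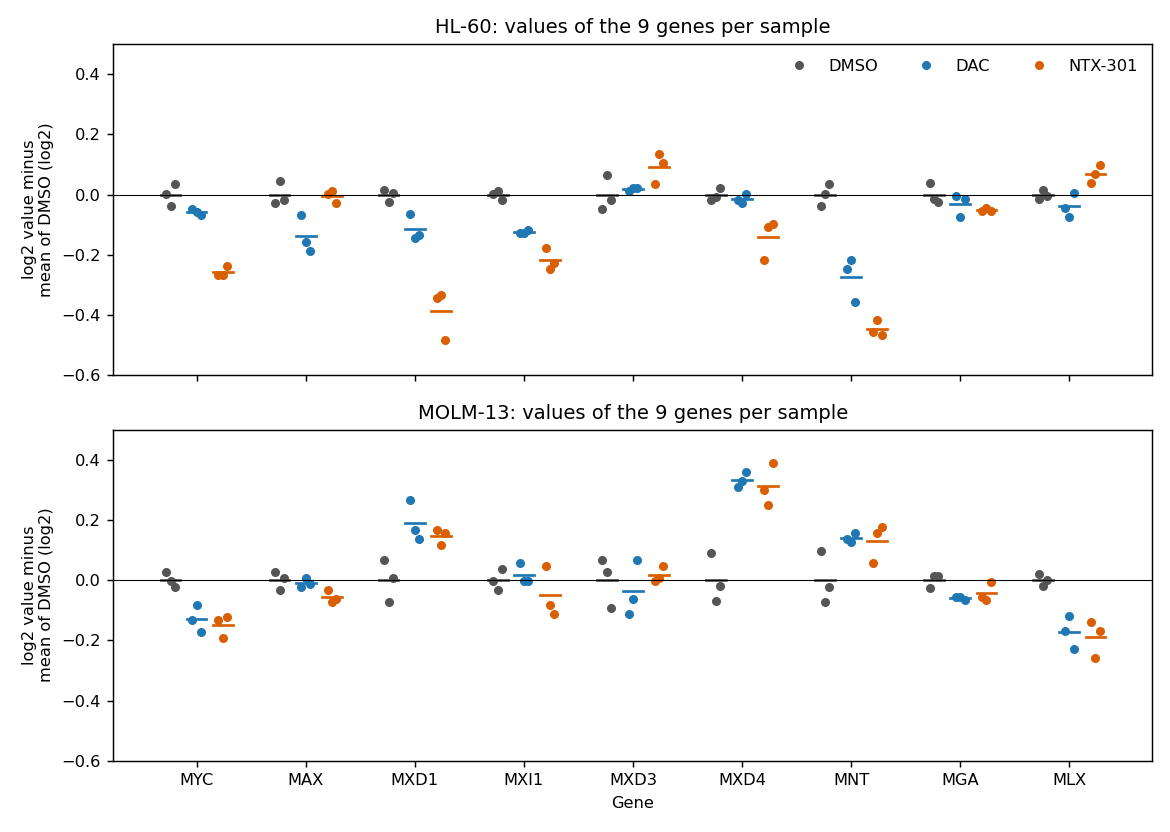
Each point is 1 sample: its deposited log2 value minus the mean of the 3 DMSO samples of its line (y axis, log2), for the 9 genes (x axis) in HL-60 (top) and MOLM-13 (bottom), and short lines are group means. MNT and MXD1 sit below DMSO in HL-60, and MXD4 and MXD1 sit above DMSO in MOLM-13.

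MYC, the activating member, fell with NTX-301 in both lines. In HL-60 its log2 level was 16.52, 16.48 and 16.55 with DMSO, 16.47, 16.46 and 16.45 with DAC, and 16.25, 16.25 and 16.28 with NTX-301. All NTX-301 samples were below every DMSO and DAC sample, and the DAC samples lay just under the lowest DMSO sample. NTX-301 lowered MYC by a log2 difference of -0.25 (SE 0.0198, limma adjusted p = 2.47e-07), which means that the linear level fell by 16.2%. DAC gave -0.06 (SE 0.0198, limma adjusted p = 0.0572), which missed the threshold. In MOLM-13 MYC was at 14.50, 14.47 and 14.45 with DMSO, 14.34, 14.39 and 14.30 with DAC, and 14.34, 14.28 and 14.35 with NTX-301. Both treated groups were below every DMSO sample and overlapped each other. The log2 differences were -0.13 with DAC (SE 0.0284, limma adjusted p = 0.00369) and -0.15 with NTX-301 (SE 0.0284, limma adjusted p = 0.00104). Under quantile normalization the MOLM-13 calls were lost, at -0.0266 with DAC and -0.0207 with NTX-301, and the DAC value in HL-60 passed the threshold when samples were centred on their median, in a model with the replicate number as a block and without DMSO replicate 2.

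MAX, the common partner, fell in HL-60 with DAC. Its log2 level there was 10.98, 11.05 and 10.99 with DMSO, 10.94, 10.85 and 10.82 with DAC, and 11.01, 11.02 and 10.98 with NTX-301, so that only the DAC group lay apart from DMSO. The DAC difference was -0.14 (SE 0.0335, limma adjusted p = 0.00972). In MOLM-13 MAX was between 11.25 and 11.35 in all 9 samples and no drug difference from DMSO passed the test, at -0.01 with DAC and -0.05 with NTX-301. The NTX-301 samples there lay below every DMSO sample. MAX was called lower with NTX-301 when samples were centred on their median (limma adjusted p = 0.0415). The MAX gene overlaps FNTB, which is also listed.

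The repressing partners MXD1 and MXD4 were lower with NTX-301 in HL-60 and higher with both drugs in MOLM-13. MXD1 in HL-60 was at 11.34, 11.30 and 11.33 with DMSO, 11.26, 11.18 and 11.19 with DAC, and 10.98, 10.99 and 10.84 with NTX-301. The 3 groups did not overlap and NTX-301 was the lowest. The log2 differences from DMSO were -0.39 with NTX-301 (SE 0.0377, limma adjusted p = 2.17e-06) and -0.11 with DAC (SE 0.0377, limma adjusted p = 0.0413). The DAC call was lost under 7 of 17 alternatives, among them leaving out any 1 DMSO sample or DAC replicate 2 or 3, with values from -0.137 to -0.0985 over all 17. In MOLM-13 MXD1 was at 11.11, 10.97 and 11.05 with DMSO, 11.31, 11.21 and 11.18 with DAC, and 11.21, 11.16 and 11.20 with NTX-301. Every treated sample exceeded every DMSO sample. The differences were 0.19 (SE 0.0427, limma adjusted p = 0.00407) and 0.15 (SE 0.0427, limma adjusted p = 0.015), and the NTX-301 call was lost without DMSO replicate 2, where the value was 0.11.

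MXD4 had the largest rise among the members in MOLM-13. It was at 10.52, 10.36 and 10.41 with DMSO, 10.74, 10.76 and 10.79 with DAC, and 10.73, 10.68 and 10.82 with NTX-301. Both treated groups lay above all DMSO samples. DAC gave 0.33 (SE 0.046, limma adjusted p = 1.90e-04) and NTX-301 gave 0.31 (SE 0.046, limma adjusted p = 1.93e-04), which is 1.26-fold and 1.24-fold. In HL-60 MXD4 was at 10.44, 10.45 and 10.48 with DMSO, 10.44, 10.43 and 10.46 with DAC, and 10.24, 10.35 and 10.36 with NTX-301. The DAC and DMSO samples overlapped, and only NTX-301 gave a call, at -0.14 (SE 0.035, limma adjusted p = 0.00591).

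MXI1 (also called MXD2 in the family's naming) fell with both drugs in HL-60, whereas MXD3, a family member linked to S phase, gave no call in either line. MXI1 in HL-60 was at 12.03, 12.04 and 12.01 with DMSO, 11.90, 11.90 and 11.91 with DAC, and 11.85, 11.78 and 11.80 with NTX-301, 3 groups without overlap. The differences were -0.12 with DAC (SE 0.0242, limma adjusted p = 0.00224) and -0.22 with NTX-301 (SE 0.0242, limma adjusted p = 8.35e-06). In MOLM-13 MXI1 ran from 11.63 to 11.80 with the groups overlapping, at 0.02 with DAC and -0.05 with NTX-301. MXD3 ran from 9.02 to 9.20 in HL-60 and from 8.95 to 9.13 in MOLM-13. Its largest difference was 0.09 with NTX-301 in HL-60 (95% interval 0.01 to 0.18, limma adjusted p = 0.0771). Of 17 alternatives, 2 called MXD3 higher there (without DMSO replicate 2 and without NTX-301 replicate 1).

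MNT, a repressor that pairs with MAX in nearly all cell types, had the largest fall of the network. In HL-60 it was at 10.75, 10.79 and 10.82 with DMSO, 10.54, 10.57 and 10.43 with DAC, and 10.33, 10.37 and 10.32 with NTX-301. The groups did not overlap and were in the order DMSO, DAC, NTX-301. The differences from DMSO were -0.27 with DAC (SE 0.0367, limma adjusted p = 1.09e-04) and -0.45 with NTX-301 (SE 0.0367, limma adjusted p = 4.10e-07), the second being a level of 0.732 of DMSO. In MOLM-13 MNT was at 10.00, 9.83 and 9.88 with DMSO, 10.04, 10.03 and 10.06 with DAC, and 9.96, 10.06 and 10.08 with NTX-301. The DMSO samples were the most spread, and the highest of them exceeded the lowest NTX-301 sample. The differences were 0.14 with DAC (SE 0.0495, limma adjusted p = 0.0481) and 0.13 with NTX-301 (SE 0.0495, limma adjusted p = 0.048). Both calls were lost in 13 of 17 alternatives, 7 of them the omission of 1 sample (DMSO replicate 2 or 3, any DAC replicate, NTX-301 replicate 2 or 3), with values from 0.1 to 0.186 for DAC and from 0.0949 to 0.181 for NTX-301.

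MGA, a large scaffold that joins MAX to a polycomb complex, gave no call in any comparison with DMSO, but several alternatives did call it. It ran from 14.47 to 14.58 in HL-60 and from 14.09 to 14.17 in MOLM-13. The differences in MOLM-13 were -0.06 with DAC (95% interval -0.11 to -0.01, limma adjusted p = 0.0503) and -0.05 with NTX-301 (limma adjusted p = 0.116). With DAC there, 5 of 17 alternatives called MGA lower (down to -0.1 when samples were centred on their median), while quantile normalization gave 0.034, not called. With NTX-301 in MOLM-13 the direction turned with the scaling, since MGA was called lower when centred (-0.0775, limma adjusted p = 0.0188) and called higher under quantile normalization (0.0684, limma adjusted p = 0.0155). With NTX-301 in HL-60 it was called lower when centred (-0.0813).

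MLX, the partner of the parallel branch, fell with both drugs in MOLM-13. It was at 11.66, 11.62 and 11.64 with DMSO, 11.47, 11.52 and 11.41 with DAC, and 11.50, 11.38 and 11.47 with NTX-301, so every treated sample was below every DMSO sample. The differences were -0.17 (SE 0.0382, limma adjusted p = 0.00452) and -0.19 (SE 0.0382, limma adjusted p = 0.00183). In HL-60 MLX was at 10.83, 10.86 and 10.84 with DMSO, 10.80, 10.77 and 10.85 with DAC, and 10.88, 10.91 and 10.94 with NTX-301. The NTX-301 samples lay above the others, by 0.07 over DMSO (SE 0.0289, limma adjusted p = 0.0791), which was not called. Under quantile normalization MLX was called higher there (limma adjusted p = 0.0339). In the RefSeq table MLX overlaps PSMC3IP, MXD1 overlaps ASPRV1, MXD3 overlaps PRELID1 and MXD4 overlaps MIR4800, all of them listed. Libraries were stranded, per the labels, but whether counting used strand is not given in the sources used here, so reads of overlapping pairs may not be separable.

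**Figure D2:**
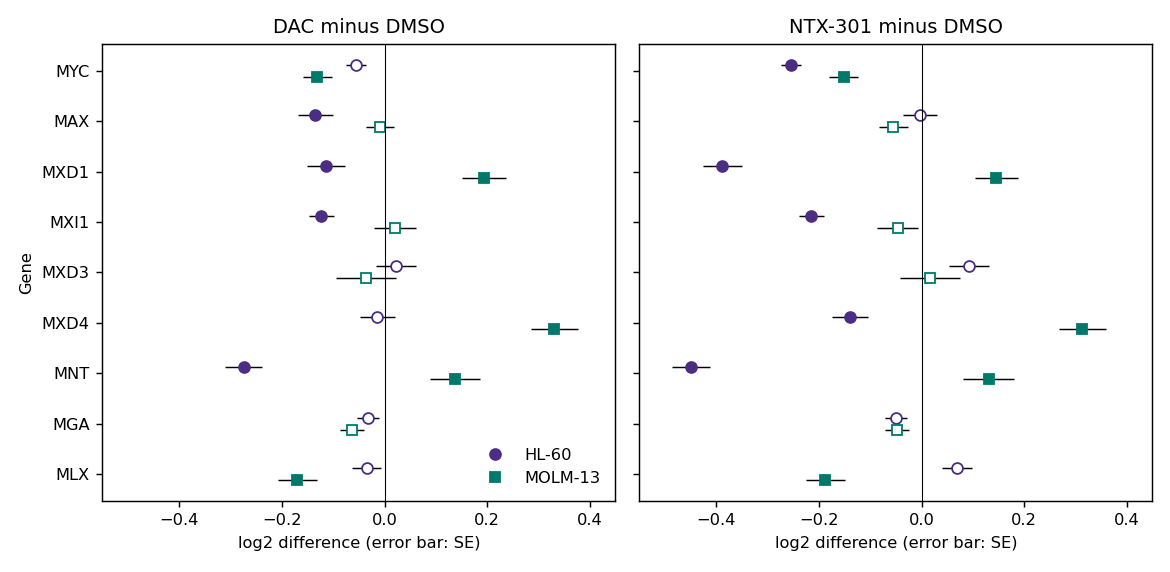
Log2 difference from DMSO (x axis, error bar SE, 3 samples a group) of the 9 genes (y axis) with DAC (left) and NTX-301 (right), HL-60 as circles and MOLM-13 as squares, filled where limma's adjusted p was below 0.05. MXD1, MXD4 and MNT lie to the left in HL-60 with NTX-301 (-0.39, -0.14 and -0.45) and to the right in MOLM-13 (0.15, 0.31 and 0.13).

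The 4 promoters printed here are those of MNT, MXD4, MXD1 and MLX. The first 3 are the repressing members called in opposite directions in the 2 lines with NTX-301, and MLX was called lower in MOLM-13. The MNT call in MOLM-13 was lost in 13 of 17 alternatives. Each promoter is the 250 bases before the RefSeq start (GRCh38.p14), 5′ to 3′ on the gene's strand, with the canonical E-box CACGTG in capitals. The windows are chr17:2401061-2401310 on the minus strand for MNT, chr4:2262110-2262359 on the minus strand for MXD4, chr2:69914859-69915108 on the plus strand for MXD1 and chr17:42566850-42567099 on the plus strand for MLX.
MNT: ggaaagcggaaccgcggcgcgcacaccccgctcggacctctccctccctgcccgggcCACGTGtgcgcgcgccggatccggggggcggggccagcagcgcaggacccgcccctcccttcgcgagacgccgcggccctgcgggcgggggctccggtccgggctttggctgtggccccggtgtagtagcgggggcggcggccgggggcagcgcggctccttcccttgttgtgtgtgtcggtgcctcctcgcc
MXD4: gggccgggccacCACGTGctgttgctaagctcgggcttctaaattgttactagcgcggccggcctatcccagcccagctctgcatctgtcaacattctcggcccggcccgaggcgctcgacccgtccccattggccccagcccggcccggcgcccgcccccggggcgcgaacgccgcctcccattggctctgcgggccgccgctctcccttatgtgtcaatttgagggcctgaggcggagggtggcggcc
MXD1: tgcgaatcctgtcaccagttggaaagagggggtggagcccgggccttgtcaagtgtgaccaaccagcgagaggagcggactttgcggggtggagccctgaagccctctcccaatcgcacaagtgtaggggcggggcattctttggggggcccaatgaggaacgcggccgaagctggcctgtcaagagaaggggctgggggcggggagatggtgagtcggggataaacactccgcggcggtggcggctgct
MLX: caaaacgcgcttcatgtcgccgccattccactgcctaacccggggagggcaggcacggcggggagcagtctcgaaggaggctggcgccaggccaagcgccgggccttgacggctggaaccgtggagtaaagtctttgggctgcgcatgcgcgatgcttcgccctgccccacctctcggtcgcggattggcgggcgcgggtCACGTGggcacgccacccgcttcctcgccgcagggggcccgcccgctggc
The E-box begins 193 bases before the start in MNT, 238 in MXD4 and 50 in MLX, and the MXD1 window holds none. The motif CACGTG, which reads the same on both strands, was in 3 of 13 promoters of the members other than MYC, all 3 printed here. It was in 6.34% of 35116 RefSeq promoters of the same length. CACGCG or its reverse complement CGCGTG was in 1 of the 13, a promoter of MGA, and in 9.72% of all. These matches describe letters in a window and were not tested against binding.

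The 2 drugs differed in HL-60 and gave no call for any member in MOLM-13. Of the 9 members, 2 were higher with NTX-301 than with DAC in HL-60 and 5 were lower, where 15.4% and 15.0% of all genes were. MYC was lower with NTX-301, at -0.2 (SE 0.0198, limma adjusted p = 4.36e-06), MXD1 at -0.27 (SE 0.0377, limma adjusted p = 8.73e-05) and MNT at -0.18 (SE 0.0367, limma adjusted p = 0.00236). MXD4 gave -0.13 and MXI1 -0.09, calls that were lost without NTX-301 replicate 1 (MXD4, -0.0846) and without NTX-301 replicate 2 (MXI1, -0.0777). MAX was higher by 0.13 (SE 0.0335, limma adjusted p = 0.00848) and MLX by 0.1, the MLX call being lost when samples were centred on their median and without DAC replicate 2 or NTX-301 replicate 3 (0.0696 to 0.124 over the alternatives).

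In MOLM-13, 0 of the 9 members were called between the drugs by limma, where 3.01% of all genes were called higher and 4.41% lower. At an unadjusted limma p under 0.05 there were also 0 members, where 4008 of 17475 genes passed. The interval of the NTX-301 minus DAC difference ran from -0.08 to 0.04 for MYC, from -0.12 to 0.08 for MXD4 and from -0.11 to 0.1 for MNT (95%, log2). A missed threshold does not show that the drugs act alike on these genes.

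The drug effects were then compared between the lines, as the difference of the 2 within-line differences over all 18 samples and 15474 genes. With DAC, 5 members were called higher in MOLM-13 relative to HL-60 and 1 lower, where 12.1% and 17.9% of all genes were. With NTX-301, the counts were again 5 and 1, against 17.6% and 22.4%. MNT differed most with NTX-301, by 0.58 (SE 0.0628, limma adjusted p = 6.65e-07), from -0.45 in HL-60 and 0.13 in MOLM-13. MXD1 differed by 0.53 (SE 0.0601, limma adjusted p = 1.11e-06) and MXD4 by 0.45 (SE 0.0594, limma adjusted p = 6.84e-06). These 3 genes also led with DAC, at 0.41 for MNT, 0.31 for MXD1 and 0.35 for MXD4, and all 6 of these calls held in each of the 26 alternatives. MLX went the other way, at -0.26 with NTX-301 (SE 0.0481, limma adjusted p = 3.12e-04).

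MYC itself fell more in HL-60 than in MOLM-13 with NTX-301, by 0.1 (SE 0.0358, limma adjusted p = 0.0273), but 8 of 26 alternatives, each the omission of 1 sample, lost this call (0.0863 to 0.13 over the omissions), and quantile normalization gave 0.243. With DAC its difference between lines was -0.08 (SE 0.0358, limma adjusted p = 0.12). That difference was called when samples were centred on their median and without MOLM-13 DAC replicate 2. MXI1 was called at 0.17 with NTX-301 and at 0.14 with DAC, MAX at 0.13 and MLX at -0.13 with DAC. The 3 DAC calls of MXI1, MAX and MLX were lost in 7, 8 and 10 of the 26 alternatives.

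The levels without drug are set side by side with no test, since the lists of genes differ between the lines, whose tables appear to have been normalized apart. In DMSO the mean of MYC was 16.52 ± 0.0365 in HL-60 and 14.48 ± 0.0242 in MOLM-13 (log2, SD, n = 3), a gap of 2.04. Of the 15517 genes in both lines, 2.66% had a larger gap in favour of HL-60, and the median gap was -0.158. For MNT the gap was 0.88 and for MLX -0.8. The gaps of the other 6 members lay between -0.31 for MAX and 0.38 for MGA.

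Of 15 genes on the band of chromosome 8 around MYC, 8 had a level in both lines. TRIB1, which encodes a pseudokinase that marks CEBPA for breakdown, was at 14.44 in HL-60 and 12.34 in MOLM-13, a gap of 2.11 close to that of MYC. The other 7 were lower in HL-60, from -1.33 for PVT1, a long noncoding RNA beside MYC, to -2.97 for CYRIB. DNA copy number was not analysed here.

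**Figure D3:**
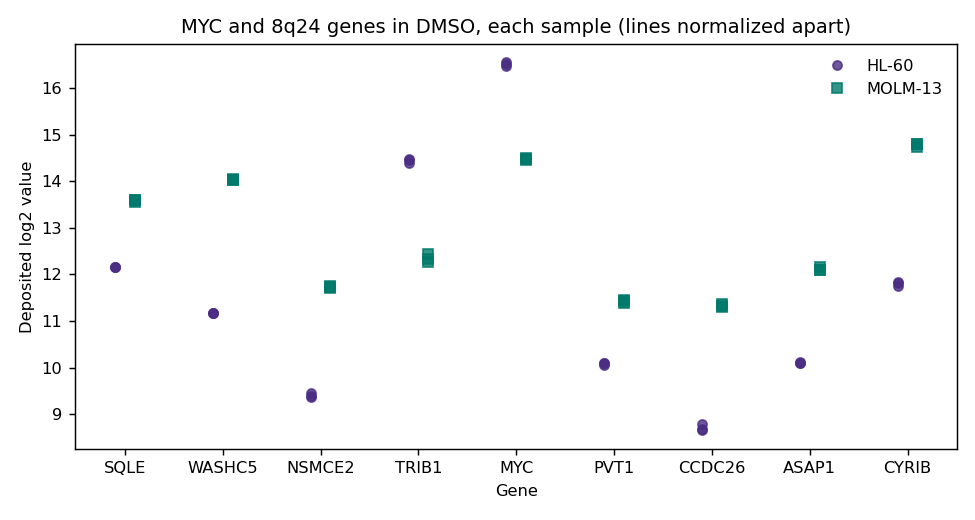
Deposited log2 value (y axis) of MYC and the 8 genes of its chromosome band listed in both lines (x axis), each of the 3 DMSO samples of HL-60 (circles) and MOLM-13 (squares) as a point. MYC and TRIB1 are above their MOLM-13 values in HL-60, by 2.04 and 2.11, and the other 7 genes are below.

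Under the drugs, TRIB1 fell in HL-60, at -0.21 with DAC (SE 0.0212, limma adjusted p = 8.50e-06) and -0.53 with NTX-301 (SE 0.0212, limma adjusted p = 3.23e-10). In MOLM-13 TRIB1 rose by 0.15 and 0.14, calls that were lost in 5 and 6 of 17 alternatives, each time without DMSO replicate 1 or 2 among others (0.116 to 0.214 and 0.0972 to 0.217). PVT1 rose in MOLM-13, where DAC gave 0.36 (SE 0.0516, limma adjusted p = 2.40e-04) and NTX-301 gave 0.54 (SE 0.0516, limma adjusted p = 8.62e-06). In HL-60 PVT1 gave -0.11 with DAC, a call lost without DMSO replicate 1 or 3 or any DAC replicate (-0.126 to -0.101), and -0.08 with NTX-301, which was not. SQLE, an enzyme of sterol synthesis, fell in MOLM-13, at -0.24 and -0.29, and in HL-60 with NTX-301, at -0.18. Of 9 band genes tested in HL-60, DAC gave 2 higher and 3 lower (0 higher without DMSO replicate 3) and NTX-301 gave 2 higher and 4 lower (0 higher under quantile normalization). In HL-60, 11.6% and 12.6% of all genes were called higher and lower with DAC, and 18.3% and 19.2% with NTX-301. Of 10 tested in MOLM-13, each drug gave 5 higher and 3 lower (for DAC, 3 higher when centred; for NTX-301, 1 lower under quantile normalization), against 15.4% and 21.2% of all genes with DAC and 20.3% and 24.8% with NTX-301.

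The genes MYC is known to activate, a list of 65 mostly of ribosome assembly and metabolism, were called lower far more often than higher. The list was chosen with earlier results of these data known. In HL-60, 32 of 65 were called lower and 4 higher with DAC (median -0.0737, against 0.000641 over all genes), and 44 lower and 2 higher with NTX-301 (median -0.103, against 0.000817; 5 higher without DMSO replicate 3). In MOLM-13, 56 were lower and 1 higher with DAC (median -0.204, against 0.00132), and 62 lower and 1 higher with NTX-301 (median -0.261, against 0.00336). The shares of all genes lower were 12.6%, 19.2%, 21.2% and 24.8% in these 4 comparisons, and the shares higher 11.6%, 18.3%, 15.4% and 20.3%. Over the alternatives the number lower in the list stayed between 24 and 33, 33 and 53, 46 and 59, and 58 and 63 in the same order. The test of the difference between lines called the DAC effect lower in MOLM-13 for 37 of the 65 genes and higher for 0. The number lower ran from 22 to 49 over the alternatives. Among all genes tested, 17.9% had a lower DAC effect in MOLM-13 and 12.1% a higher one. The NTX-301 effect was called lower there for 46 genes of the list (38 to 48) and higher for 1. For that drug the shares of all genes were 22.4% lower and 17.6% higher.

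Among the activated targets, TERT, the telomerase enzyme, fell with DAC in HL-60, at -0.38, as did NOP16, a nucleolar protein, at -0.18. SUPV3L1, a mitochondrial RNA helicase, and RRP12, a ribosome assembly factor, fell with NTX-301 there, at -0.3 and -0.29. In MOLM-13 UNG, which removes uracil from DNA, fell, at -0.43 with DAC and -0.45 with NTX-301. NIP7, another ribosome assembly factor, fell, at -0.39 with DAC, and so did HSPE1, a mitochondrial chaperonin, at -0.48 with NTX-301. CCND2, a cyclin of the G1 phase, went against the list in all 4 comparisons, at 0.42, 0.39, 0.2 and 0.16 (DAC and NTX-301 in HL-60, then in MOLM-13). SRM, spermidine synthase, rose by 0.18 with DAC in HL-60, and MCM4, a subunit of the replicative helicase, by 0.1 with NTX-301.

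**Figure D4:**
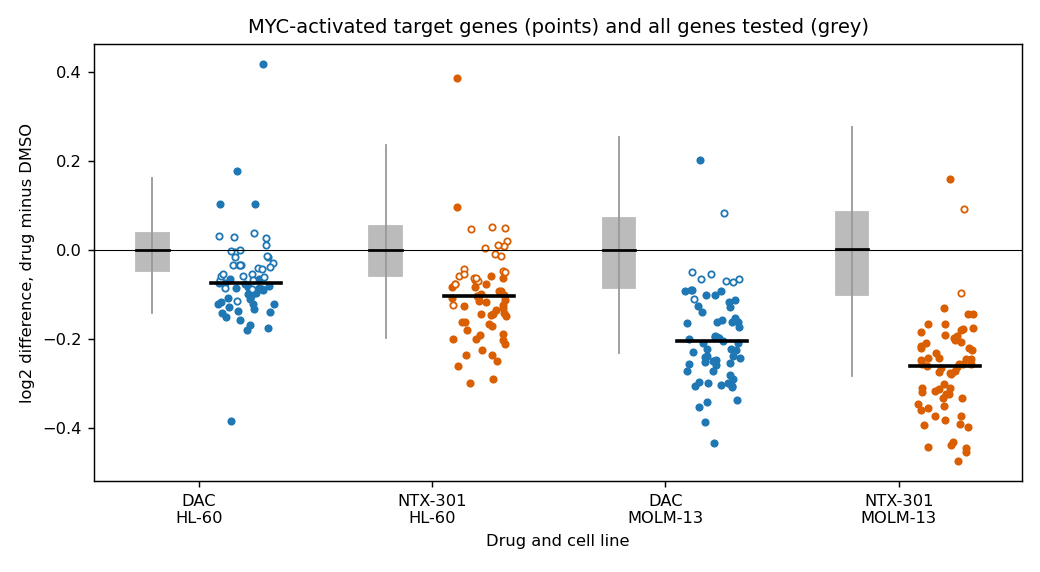
Log2 difference from DMSO (y axis) of the 65 MYC-activated genes, 1 point a gene, filled where called, with the list's median as a black line, for each drug and line (x axis). Grey boxes and whiskers give the 25th to 75th and the 5th to 95th percentiles of all genes tested, and the list's medians run from -0.0737 (DAC, HL-60) to -0.261 (NTX-301, MOLM-13).

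Genes that MYC is known to repress gave more calls higher than lower in all 4 comparisons with DMSO, on short lists. With DAC in HL-60 the counts were only 2 and 1. Of 9 tested in HL-60, DAC gave 2 higher and 1 lower (22.2% and 11.1%, against 11.6% and 12.6% of all genes; 2 lower without DMSO replicate 2), and NTX-301 gave 5 higher and 3 lower (55.6% and 33.3%, against 18.3% and 19.2%). Of 11 tested in MOLM-13, DAC gave 6 higher and 1 lower (54.5% and 9.09%, against 15.4% and 21.2% of all genes; 4 higher without DMSO replicate 1), and NTX-301 gave 7 higher and 1 lower (63.6% and 9.09%, against 20.3% and 24.8%; 0 lower under quantile normalization). CDKN1A, the p21 inhibitor of cyclin-dependent kinases and also a p53 target, rose in MOLM-13, where DAC gave 0.89 and NTX-301 gave 1.07 (SE 0.0291 each, limma adjusted p = 2.87e-08 and 3.64e-09). FTH1, the ferritin heavy chain, rose in all 4 comparisons, from 0.34 (DAC, HL-60) to 0.66 (NTX-301, MOLM-13). NDRG1, a stress and differentiation gene, rose by 0.48 and 0.64 in HL-60. CEBPA, a myeloid transcription factor, fell there, at -0.18 and -0.15. GADD45A fell with NTX-301 in HL-60, at -0.2, and BCL2 fell in MOLM-13, at -0.22 and -0.09 (0.0192 with NTX-301 under quantile normalization).

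Of 16 genes of the SIN3 corepressor that the repressing members use, 9 were lower and 2 higher with DAC in MOLM-13 (median -0.117, against 0.00132 over all genes) and 10 lower and 2 higher with NTX-301 (median -0.134, against 0.00336). The lower genes were 56.2% and 62.5% of the list, where 21.2% and 24.8% of all genes were lower. The higher genes were 12.5% with each drug, against 15.4% and 20.3% of all genes. Under quantile normalization the counts fell to 6 and 8 lower and the medians to -0.0519 and -0.0658. HL-60 gave 2 lower and 2 higher with DAC (0 lower when samples were centred on their median), and 1 lower and 2 higher with NTX-301 (2 lower when centred, 8 higher under quantile normalization). With DAC these were 12.5% lower and 12.5% higher, near the 12.6% and 11.6% of all genes. With NTX-301 they were 6.25% and 12.5%, against 19.2% and 18.3% of all genes. RBBP7, a histone chaperone, fell in MOLM-13, at -0.28 and -0.26, and BRMS1 fell, at -0.21 and -0.28. SIN3B, a scaffold of the complex, rose there by 0.2 and 0.16, and ARID4A by 0.1 and 0.16. The DAC call of ARID4A was lost when centred and without DMSO replicate 2 or DAC replicate 3 (0.0638 to 0.15). In HL-60 SIN3B also rose with NTX-301, by 0.22, and BRMS1 also fell, at -0.08 with DAC and -0.11 with NTX-301. That DAC call of BRMS1 was lost in 11 of 17 alternatives (-0.108 to -0.0613).

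Of 12 genes of the polycomb complex that contains MGA, 3 of which also stand in other lists, 8 were lower and 0 higher with DAC in MOLM-13 (median -0.138) and 9 lower and 0 higher with NTX-301 (median -0.201), or 66.7% and 75% lower against 21.2% and 24.8% of all genes. Of all genes, 15.4% and 20.3% were called higher. Under quantile normalization the list's medians were -0.0804 and -0.116. PCGF6, its defining subunit, fell there, at -0.22 and -0.36. L3MBTL2, its histone reader, fell in MOLM-13 with NTX-301, at -0.3, and in HL-60 with both drugs, at -0.12 and -0.25. HL-60 gave 4 higher and 3 lower with DAC (1 lower without DMSO replicate 1), and 3 higher and 3 lower with NTX-301 (5 higher under quantile normalization, 6 lower when centred). With DAC these were 33.3% higher and 25% lower, against 11.6% and 12.6% of all genes. With NTX-301 they were 25% each, near the 18.3% and 19.2% of all genes. RYBP and RNF2 rose there with DAC by 0.14 and 0.11. E2F6, a repressing E2F protein, fell with NTX-301 in HL-60, at -0.22.

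Of 24 genes for MYC cofactors and MYC protein turnover, 12 were lower and 2 higher with DAC in MOLM-13 (1 to 6 higher over the alternatives), and 13 lower and 3 higher with NTX-301 (2 to 7 higher). The lower genes were 50% and 54.2% of the list, against 21.2% and 24.8% of all genes. The higher genes were 8.33% and 12.5%, against 15.4% and 20.3% of all genes. AURKA, a mitotic kinase that also stabilises MYC family proteins, fell there, at -0.29 and -0.42, and so did ACTL6A, a chromatin remodelling subunit, at -0.3 and -0.35. EP400, a chromatin remodelling ATPase, rose by 0.2 and 0.17. In HL-60 the counts were 2 lower and 3 higher with DAC (0 lower when centred), and 6 lower and 8 higher with NTX-301 (10 lower when centred). With DAC these were 8.33% lower and 12.5% higher, near the 12.6% and 11.6% of all genes. With NTX-301 the 25% lower is near the 19.2% of all genes, and 33.3% were higher against 18.3%. CIP2A, which protects MYC from dephosphorylation, rose there by 0.16 and 0.31, and AURKA rose by 0.17 with NTX-301, against its fall in MOLM-13. USP36, a deubiquitinase, fell with NTX-301 in HL-60, at -0.17. FBXW7, the ubiquitin ligase adaptor that marks MYC for breakdown, was called with DAC in HL-60, at -0.07, but in 12 of 17 alternatives it was not (-0.0784 to -0.0512).

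Among the partners of MLX, MLXIPL was at 7.32, 7.33 and 7.34 with DMSO in HL-60, 7.90, 7.97 and 7.87 with DAC, and 7.81, 7.98 and 7.94 with NTX-301. All treated samples were above all DMSO samples, by 0.58 with each drug (SE 0.0465, limma adjusted p = 8.92e-07 and 3.39e-07). In MOLM-13 MLXIPL gave 0.05 and 0.15, neither called, and the lines differed by -0.53 with DAC and -0.43 with NTX-301 (SE 0.0746 each, limma adjusted p = 2.63e-05 and 1.46e-04). MLXIP rose in MOLM-13, by 0.19 and 0.18 (SE 0.0408 each). TXNIP, a target of the MLX branch that restrains glucose uptake, rose by 0.11 with DAC in HL-60 and by 0.18 and 0.27 with NTX-301 in HL-60 and MOLM-13. With DAC in MOLM-13 TXNIP gave 0.05, not called (limma adjusted p = 0.32), and its groups overlapped. ARRDC4, another such target, gave -0.1 in HL-60 with NTX-301. In MOLM-13 it gave 0.15 with DAC and 0.13 with NTX-301. These calls were lost in 4, 8 and 10 of 17 alternatives, among them the omission of DMSO replicate 1 or 3 in each case (-0.132 to -0.0729, 0.108 to 0.213 and 0.103 to 0.157). MYCL, a MYC paralog, was listed in MOLM-13 and fell with NTX-301, at -0.17, and MYCN was listed in neither line.

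The genes whose 4 drug differences were closest to those of a member were ranked by root mean square difference among 9701 genes. The ranking describes values that share their DMSO samples within each line. Closest to MYC were FOXK2 (0.0112), QPCTL (0.0133) and NSUN4 (0.0166). Closest to MXD1 were GALNS (0.0251), LOC102724814 (0.0379) and SPI1 (0.0417), the last a myeloid transcription factor. Closest to MXD4 were TNFRSF10B (0.0365), ALDH3B1 (0.0378) and NFAT5 (0.0381). Closest to MNT were TRIB1 (0.0529), TNFSF13B (0.0654) and GLG1 (0.0657), and to MLX DAXX (0.0101), EXOSC10 (0.0104) and SAP18 (0.013). For MAX they were NAXD, RPS18 and PMS2CL, for MXI1 ZBTB11, PLCB3 and VPS51, for MXD3 ZNF75A, PCM1 and CEP192, and for MGA GGNBP2, ZNF281 and MTMR9.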

How the data were processed

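RNA-seq libraries of 18 samples (stranded total RNA, per the labels) were processed by the authors to log2 normalized values per gene, which they deposited 1 table a sample. The submitters' processing notes name FastQC, Trimmomatic 0.38, HISAT2, StringTie and build hg19, without roles. The normalization and read totals are not given in the sources used here. Low genes vary little (median range 0.021 against 0.208 for well-expressed genes in HL-60), so folds of low genes may be understated.

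Genes reaching 1 on the linear scale in at least 3 samples were kept (17046 in HL-60 and 17475 in MOLM-13). limma 3.58.1 (R 4.3.3) was fitted on the 9 samples of a line, with group means, a mean-variance trend and two-sided p-values adjusted by Benjamini-Hochberg over all genes (threshold 0.05), and on all 18 samples for differences between lines. Tested on simulated data with 200 changed genes, the fit recovered 98% of them for DAC in HL-60 and 91.5% for DAC in MOLM-13; of those changed by 0.25, the smallest size simulated, it recovered 94% and 74.6%, and it made 7 and 9 false calls in all. The members and gene lists were chosen with earlier results of these data known. All 9 members are named; of longer lists, per comparison with DMSO, the 2 highest and 2 lowest called genes were candidates, and every gene of lists of 5 or fewer; some genes of these lists are not reported here. Alternatives varied scaling, trend, filter, pseudocount, replicate block and the samples used. Promoters are from RefSeq (GRCh38.p14), used for sequence only; the 8 members other than MYC all matched, and the promoter of MYC is not printed.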

Additional observations from a re-analysis of the deposited data

Results flagged for a closer look

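The drug effect on a member differed between MOLM-13 and HL-60 by limma's test of the difference itself (18 samples) in 12 cases, given on the log2 scale, positive where the MOLM-13 effect was the higher. With DAC the differences were 0.41 for MNT, 0.35 for MXD4, 0.31 for MXD1, 0.14 for MXI1, 0.13 for MAX and -0.13 for MLX. With NTX-301 they were 0.58 for MNT, 0.53 for MXD1, 0.45 for MXD4, 0.17 for MXI1, 0.1 for MYC and -0.26 for MLX. Of these 12 calls, those of MXI1, MAX and MLX with DAC were lost in 7, 8 and 10 of 26 alternatives. That of MYC with NTX-301 was lost in 8. MXD1, MXD4 and MNT fell in HL-60 with NTX-301 and rose in MOLM-13, whereas MYC fell in both. In MOLM-13 the NTX-301 call of MNT was lost in 13 of 17 alternatives and that of MXD1 in 1. The MYC call there was lost under quantile normalization. The lines were given different concentrations, so line and concentration cannot be told apart.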

How the results depend on the processing

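Of 72 member results, 38 were called, 25 of them in every alternative, and 0 called values changed sign. Over 1386 alternative values, 1262 kept direction and call, 74 lost the call, 18 gained it in the same direction and 32 changed sign, all from results with no call; the causes were not tested. Of the 32, 2 were called with the new sign, both MGA under quantile normalization (NTX-301 in MOLM-13, limma adjusted p = 0.0155, and DAC between lines, 0.0403). Of 108 calls of named genes from the lists, 83 were kept in every alternative. Under quantile normalization the sign changes were MAX with DAC in MOLM-13 (0.0259) and with NTX-301 in HL-60 (0.0199), MGA with DAC in MOLM-13 (0.034), with NTX-301 in MOLM-13 (0.0684), for NTX-301 against DAC in HL-60 (0.0295) and for DAC between lines (0.0751), MXI1 (0.0153) and MXD3 (-0.0691) with NTX-301 in MOLM-13, and MYC for DAC between lines (0.00348) and NTX-301 against DAC in MOLM-13 (0.00588). Centring on the median changed MNT for NTX-301 against DAC (0.00122), MXD3 with NTX-301 (-0.0141) and MXI1 with DAC (-0.0171), all in MOLM-13. Leaving out 1 sample gave ranges across 0 for MAX with DAC in MOLM-13 (-0.0257 to 0.00366) and NTX-301 in HL-60 (-0.0149 to 0.0188), MXD3 with DAC in HL-60 (-0.000865 to 0.054) and MOLM-13 (-0.0889 to 0.00432) and NTX-301 in MOLM-13 (-0.0286 to 0.0491), MGA for NTX-301 between lines (-0.0154 to 0.0124), and, for NTX-301 against DAC in MOLM-13, MGA (-0.00162 to 0.0262), MLX (-0.0467 to 0.0184), MNT (-0.0289 to 0.0308), MXD4 (-0.058 to 0.012) and MYC (-0.0417 to 0.002).

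Of the 8 counts of all genes called, that of NTX-301 against DAC in MOLM-13 moved by over 1.5 times, from 1297 to 817 with the replicate block and to between 462 and 1322 without 1 sample (767 without DAC replicate 1, 479 without NTX-301 replicate 2, 462 without NTX-301 replicate 3). Centring moved the split of higher to lower calls from 3115 and 3265 to 2270 and 6053 (NTX-301, HL-60), from 2622 and 2563 to 1746 and 5770 (NTX-301 against DAC, HL-60), from 2689 and 3705 to 1960 and 5731 (DAC, MOLM-13), from 3543 and 4337 to 2735 and 5760 (NTX-301, MOLM-13) and, between lines with DAC, from 1871 and 2767 to 1346 and 4548. Same-numbered samples share a number in the labels, and whether they were handled together is not known. Their deviations correlated over 0.1 in 1 of 9 pairs in each line. In HL-60 7 of 9 samples correlated best with their own number, and in MOLM-13 1 of 9 did. With the replicate block MYC gained a call with DAC in HL-60, and MNT with both drugs in MOLM-13 and MLX with DAC between lines lost theirs. Read depth is unknown, so no counting error is given.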
